A study of Rattus norvegicus with 8 samples.

Results

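Cytochrome P450 enzymes of families 2 to 27 were followed in cultured rat hepatocytes, the main cell type of the liver, after a short exposure to cadmium. The members were all genes with a platform symbol of Cyp followed by a digit, leaving out Cyp1a1, Cyp1a2, Cyp1b1 and Cyp51, each read by its probe set with the highest mean log2 signal over all 8 arrays. This gave 49 genes of the 10411 with a symbol of their own on the array, and 31 of the 49 passed the filter on dim probe sets. Primary cells of 4 rats were used, and each rat gave 1 culture exposed for 3 h to 4 µM cadmium chloride, the water-soluble form of this toxic metal, and 1 culture kept in medium only. All cultures had been plated on collagen and kept overnight in medium without albumin before the exposure, so the controls are cultured hepatocytes and not fresh liver. Each culture was hybridized to 1 oligonucleotide array (RAE 230A), giving 4 cadmium and 4 control arrays, and a rat's number joins its 2 cultures. The sources used here do not give strain, sex or age of the rats.

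P450 enzymes are haem proteins that insert an oxygen atom into small hydrophobic molecules, using electrons from NADPH passed on by a reductase. In the liver, families 2 and 3 oxidize drugs, toxicants and steroids, family 4 hydroxylates fatty acids and eicosanoids, and members of families 7, 8 and 27 turn cholesterol into bile acids. Their transcripts are known to fall when hepatocytes are put into culture, and several rat genes of families 2 and 3 differ between the sexes.

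The median signal of an array, on the authors' MAS5 scale, lay between 180.0 and 186.4 after cadmium and between 192.2 and 197.2 in controls. The summed signal of 6 hepatocyte marker genes lay between 91900 and 104300 in cadmium cultures and between 87140 and 99940 in control cultures. All 4 measured endothelial markers and 7 of 9 stellate cell markers were below the filter. Of 8 Kupffer cell and leukocyte markers 4 passed it, as did 1 of 4 cholangiocyte markers, Epcam, so the cultures are not shown to hold hepatocytes alone. All cadmium arrays were washed on one fluidics module and all control arrays on another, so module and treatment cannot be told apart. Both arrays of a rat were scanned on the same day and each rat on a day of its own, so rat and scan day cannot be told apart either. Rats 1 and 2 were on one chip lot (lot 2) and rats 3 and 4 on the other (lot 1). A difference of rats 1 and 2 from rats 3 and 4 therefore cannot be told apart from one between lots. The filter removed the dimmest 40% of probe sets by their mean over all arrays, which are those under a signal of about 118. Precision is limited by the number of arrays, which carry no read depth.

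No P450 member passed the test for cadmium against control in either direction. In the paired limma fit with the rat as a block, 0 of 31 tested members had an adjusted p under 0.05, against 5.15% of all 9519 tested probe sets (2.86% higher and 2.29% lower). Only 3 members, Cyp2c7, Cyp4a1 and Cyp2d4, had an unadjusted p under 0.05, against 20.4% of all tested probe sets, and the fit without the rat block also called 0 (3.53% of all probe sets, 2.1% higher and 1.43% lower). The median log2 change over the 31 was -0.01, against -0.06 over all tested probe sets, and 16 had a lower and 15 a higher mean after cadmium, although centring each array on its median made 9 of the lower ones higher. Cyp2c7, Cyp2j3 and Cyp4a1 were higher in 4 of 4 rats (3 of 31, against 9.91% of all tested probe sets), and Cyp2d4 and Cyp4a3 lower in 4 of 4 (2 of 31, against 19.7%). The changes ran from -0.25 for Cyp2d4 to 0.40 for Cyp2a2. In none of the 31 did the 4 cadmium values all lie on one side of the 4 control values, which was the case for 11.5% of all tested probe sets.

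The intervals of the fit give a range of change for each member on its own. They are not adjusted for the 31 members and rest on variances moderated over all tested probe sets, so they set no firm bound. The 95% interval of the log2 change lay within a 2-fold change in both directions for 31 of 31 members and within 1.5-fold for 29. The highest upper bound was 0.90, for Cyp2a2, and the lowest lower bound was -0.53, for Cyp2f4. In arrays simulated with normal noise of these same variances, the paired test found 6% of probe sets changed by 0.25 on the log2 scale. It found 40% of those changed by 0.5 and 80% of those changed by 1, so smaller changes of single members could pass unseen. These bulk values cannot tell less RNA per cell from fewer cells that express a gene.

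**Figure D1:**
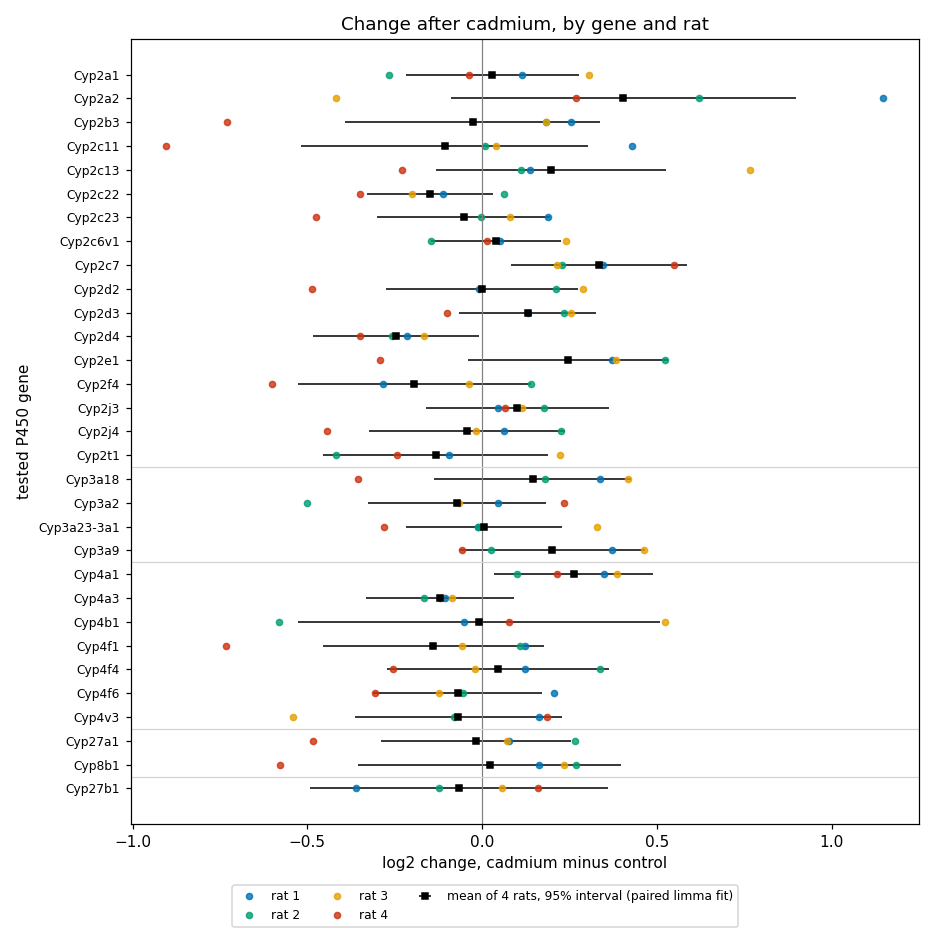
Log2 change of the signal (horizontal axis, cadmium minus control) for each of the 31 tested P450 genes, in the order family 2, family 3, family 4, bile acid synthesis and Cyp27b1, separated by grey lines. Coloured points are the single rats, and black squares with bars are the mean of 4 rats with its 95% interval. The means lie between -0.25 and 0.40, and the points of rat 4 lie left of zero for 22 of the 31 genes.

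The rats did not give the same picture. In rats 1 to 3 the median log2 change over the 31 members was 0.12, 0.10 and 0.11, while in rat 4 it was -0.26. Members lower after cadmium numbered 9, 12 and 11 in rats 1 to 3 and 22 in rat 4. Over all tested probe sets the share that was lower was nearly the same in each rat, at 57.9%, 57.8%, 57.1% and 57.2%. Some of the other gene lists moved with the P450 genes in rat 4. Of 12 adult hepatocyte genes outside the P450 families, 11 were lower in rat 4, with a median of -0.24, against 2, 4 and 1 in rats 1 to 3, with medians of 0.14, 0.05 and 0.10. Of 9 electron donors and partners, 8 were lower in rat 4 (median -0.23), against 4, 5 and 5 in rats 1 to 3. Other lists did not move in this way. Of 22 tested nuclear receptors and liver factors, 11 were lower in rat 4 (median -0.05), against 10, 10 and 9 in rats 1 to 3. Of 11 genes of haem synthesis and breakdown, 6 were lower in rat 4 (median -0.04), against 7, 4 and 3. Without rat 4 the paired limma fit called 2 members higher, Cyp2e1 (log2 change 0.43, adjusted p = 0.00552) and Cyp3a18 (0.31, adjusted p = 0.0357), while 3.25% of all tested probe sets were called higher and 6.29% in either direction. At 2 of 31, this is close to the share over all probe sets and is no result about the P450 genes. Rats 1 and 2, on chip lot 2, gave a member median of 0.11 and rats 3 and 4, on lot 1, one of -0.08.

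The level of P450 transcripts differed more between rats than between treatments. The SD of the log2 level between the 4 rats, each taken as the mean of its 2 cultures, exceeded the size of the cadmium change in 29 of 31 members (93.5%), against 51.7% of all tested probe sets. Its median was 0.34 over the members and 0.16 over all tested probe sets. Of the variation of a member's 8 log2 values, a median of 1.16% lay between treatments and 85.2% between rats, against 13.9% and 45.3% over all tested probe sets. Noise alone would give rats a larger share than treatments, since there are 4 rats and only 2 treatments. The shares of the members are therefore to be read against those of all tested probe sets and not against each other. The exceptions were Cyp2j3 and Cyp2f4, for which the cadmium change of 0.10 and -0.20 was larger in size than the SD between rats of 0.04 and 0.14.

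**Figure D2:**
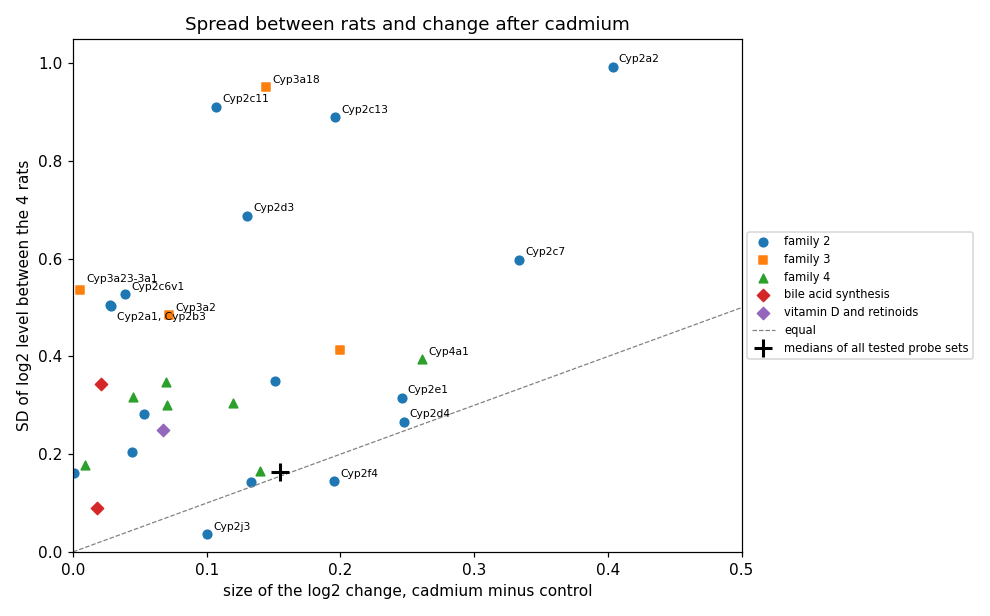
SD of the log2 level between the 4 rats (vertical axis) against the size of the log2 change after cadmium (horizontal axis), with 1 point for each of the 31 tested P450 genes and a cross at the medians of all tested probe sets. The dashed line marks equal values; 29 of 31 points lie above it, with Cyp2a2, Cyp3a18, Cyp2c11 and Cyp2c13 at the top and Cyp2j3 and Cyp2f4 below the line.

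With cadmium as a term, 12 of 31 members (38.7%) differed between rats at an adjusted p under 0.05 in the moderated F test of limma, against 1.75% of all tested probe sets. Of the 12, 8 belong to family 2 (Cyp2a1, Cyp2a2, Cyp2c6v1, Cyp2c7, Cyp2c11, Cyp2c13, Cyp2c22 and Cyp2d3), 3 to family 3 (Cyp3a2, Cyp3a18 and Cyp3a23-3a1) and 1 to family 4 (Cyp4a1). None of the 2 bile acid genes tested and not Cyp27b1 passed. By the same test, 0 of 9 electron donors and partners of P450 enzymes, 0 of 22 nuclear receptors and liver factors and 0 of 12 other hepatocyte genes differed between rats. At a share of 1.75% over all tested probe sets, a count of 0 in lists this short is near that share. The count of 12 held after quantile normalization, but 2 members, Cyp2d3 and Cyp3a18, were left without the variance trend (0.378% of all probe sets) and 6 without the filter (0.548%). Leaving out rat 1, 2 or 3 left 7 members each time, against 0.987%, 0.966% and 0.557% of all probe sets. They were not the same 7, since Cyp2a2 was among them only without rat 1, Cyp2c7 and Cyp3a2 only without rat 2, and Cyp2a1 only without rat 3.

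Rat 4 had the lowest level in 18 of the 31 members (58.1%), against 28.4% of all tested probe sets, and the highest in 1. It was the lowest in 8 of the 12 members that differed between rats. Without rat 4, 11 of 31 members still differed between the other rats, against 3.77% of all tested probe sets, among them Cyp2a1, Cyp2a2, Cyp2c7, Cyp2c22, Cyp3a18 and Cyp4a1 of the 12. The summed signal of 8 Kupffer cell and leukocyte markers was 5756 in the cadmium culture of rat 4, against 7212 in its control, and lay between 3501 and 4634 in cadmium and between 3820 and 4411 in control cultures of the other rats. Of the 8, 4 (Clec4f, Aif1, Itgam and Ptprc) were below the filter in all, and the sum was carried mostly by Cd14, which hepatocytes also express, and Cd68. Cd68, a lysosomal protein of macrophages, itself differed between rats (adjusted p = 0.000638), with signals of 708, 1013, 2152 and 2891 in cadmium cultures and 737, 958, 1704 and 2380 in controls, lowest in rat 1 and highest in rat 4. The other markers above the filter, Cd14, Lyz2 and Csf1r, did not pass the moderated F test between rats (adjusted p = 0.184, 0.265 and 0.544). Csf1r was lowest in rat 4, with mean log2 levels of 7.66, 7.75, 7.03 and 6.96 in rats 1 to 4. The sum of 4 cholangiocyte markers, nearly all of it Epcam, was 1127 in the cadmium culture of rat 4 and 1812 in its control, against 2438 to 2699 in cadmium and 2385 to 2900 in control cultures of the others. The hepatocyte marker sum of rat 4 was 91900 after cadmium and 99940 in the control, and its ratio of 3′ to 5′ signal for beta-actin was 1.63 after cadmium and 1.79 in the control. In the other rats this ratio lay between 1.43 and 1.63 after cadmium and between 1.38 and 1.45 in controls. For GAPDH the same ratio was 1.07 in the cadmium culture of rat 4 and 0.988 in its control. This was within the range of the other rats, 0.972 to 1.12 after cadmium and 0.958 to 1.06 in controls. The part of these values in the low P450 levels of rat 4 was not tested.

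**Figure D3:**
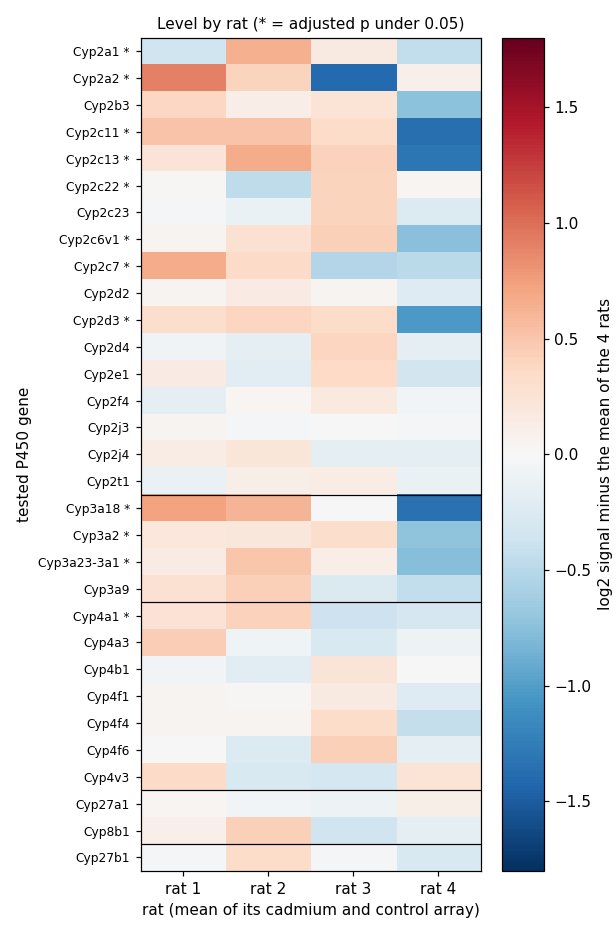
Level of each tested P450 gene by rat, as the log2 signal averaged over a rat's cadmium and control arrays minus the mean of the 4 rats (colour scale, red higher and blue lower), with an asterisk where the rats differed at an adjusted p under 0.05. Rat 4 is blue in most genes of families 2 and 3, with Cyp2c11, Cyp2c13 and Cyp3a18 the darkest, while Cyp2a2 is darkest in rat 3.

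The members with the largest spread between rats were Cyp2a2, Cyp3a18, Cyp2c11, Cyp2c13 and Cyp2d3. Cyp2c11, the main testosterone hydroxylase of adult male rat liver, gave signals of 5987, 5174.5, 4579 and 1027 in the cadmium cultures of rats 1 to 4, against 4449, 5147.5, 4454 and 1922 in their controls. Both cultures of rat 4 lay far below the other 6, which overlapped between treatments. The SD between rats was 0.91 (adjusted p = 0.0162), and the cadmium change was -0.11 ± 0.18 (SE; adjusted p = 0.786). Cyp2c13, also male-predominant in the rat, had signals of 2651, 3559.5, 3758.5 and 806 with cadmium and 2412.5, 3295, 2208 and 945 without. Rat 4 was again the lowest in both groups, while the control of rat 3 was well under its cadmium culture (SD between rats 0.89, adjusted p = 0.0053; log2 change 0.20 ± 0.14, limma adjusted p = 0.491). The Cyp2c13 probe set is of the type that can bind transcripts of several related genes.

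Cyp2d3, of the subfamily that oxidizes many basic drugs, gave 4027, 4404, 4260.2 and 1464 in cadmium cultures and 3677, 3743, 3569 and 1570.1 in controls. Rats 1 to 3 were within a narrow band in each group and rat 4 was far below them in both (SD between rats 0.69, adjusted p = 0.00124; log2 change 0.13 ± 0.09, limma adjusted p = 0.444). For Cyp3a18, a steroid hydroxylase that is male-predominant in the rat, the signals were 6986, 6134, 4349 and 1309.6 after cadmium and 5528, 5422, 3260 and 1674 in controls. Its levels fell into the order rats 1 and 2, rat 3, rat 4 in each group (SD between rats 0.95, adjusted p = 0.00149; log2 change 0.14 ± 0.12, limma adjusted p = 0.564). Cyp2a2, a testosterone hydroxylase, had signals of 1553.5, 905, 181 and 652 with cadmium and 702, 589, 242 and 541 without. Here rat 3 and not rat 4 was the lowest (SD between rats 0.99, adjusted p = 0.0245). The cadmium change of Cyp2a2, 0.40 ± 0.22 (adjusted p = 0.339), was 0.88 in rats 1 and 2 (limma fit within chip lot 2, adjusted p = 0.0126) and -0.07 in rats 3 and 4. The single differences were 1.145, 0.619, -0.419 and 0.269 in rats 1 to 4. The lot 2 fit rests on 2 rats, and 1.93% of all tested probe sets were called higher in it.

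The promoters of 4 of these 5 genes are shown because these are the members whose level differed most between animals, with the 200 bases before the RefSeq start of the gene on GRCr8, 5′ to 3′. The windows are chr1:246175016-246175215 on the plus strand for Cyp2c11, chr1:248787189-248787388 on the minus strand for Cyp2c13, chr7:115802143-115802342 on the minus strand for Cyp2d3 and chr12:13994112-13994311 on the plus strand for Cyp3a18. Capitals mark matches, on either strand, to 4 motifs chosen with these sequences in view, which were TATAAA (the TATA box), CAAAGNNCA (a half-site of the HNF4 type), AGGTCA (a nuclear receptor half-site, which lies inside CAAAGNNCA where the free bases are GT) and TTGCNNAA (a C/EBP core).
Cyp2c11: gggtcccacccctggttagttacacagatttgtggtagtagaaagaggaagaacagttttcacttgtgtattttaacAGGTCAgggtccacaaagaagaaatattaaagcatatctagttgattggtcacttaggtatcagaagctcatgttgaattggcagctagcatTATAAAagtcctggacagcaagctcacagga
Cyp2c13: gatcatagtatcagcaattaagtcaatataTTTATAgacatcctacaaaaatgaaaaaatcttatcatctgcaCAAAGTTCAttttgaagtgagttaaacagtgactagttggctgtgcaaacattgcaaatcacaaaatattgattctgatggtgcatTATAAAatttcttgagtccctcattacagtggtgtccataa
Cyp2d3: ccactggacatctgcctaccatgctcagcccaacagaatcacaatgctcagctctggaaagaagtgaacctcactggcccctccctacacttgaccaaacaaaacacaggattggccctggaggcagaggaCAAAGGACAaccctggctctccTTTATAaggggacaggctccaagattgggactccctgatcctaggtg
Cyp3a18: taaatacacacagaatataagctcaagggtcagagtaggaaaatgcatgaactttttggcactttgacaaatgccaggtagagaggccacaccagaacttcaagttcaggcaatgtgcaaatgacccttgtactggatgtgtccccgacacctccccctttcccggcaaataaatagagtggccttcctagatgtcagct
Cyp2c11 held a TATAAA match that began 31 bases before the start and an AGGTCA that began 123 bases before it. Cyp2c13 held 2 TATAAA matches, beginning 41 bases and, on the other strand, 170 bases before the start, and a CAAAGNNCA beginning 127 bases before it. Cyp2d3 held TATAAA on the other strand 47 bases and CAAAGNNCA 69 bases before the start, and the window of Cyp3a18 held none of the 4 motifs. Of 38 members with a promoter entry of the 49, 12 held TATAAA, 11 CAAAGNNCA, 12 AGGTCA and 10 TTGCNNAA, against 10.4%, 4.23%, 11.4% and 7.16% of 33469 rat promoters of the same length. Since the motifs were chosen with sequences in view and many members are related genes, these counts are no test against the shares of all promoters. A match is a description of the letters and not a binding site.

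**Figure D4:**
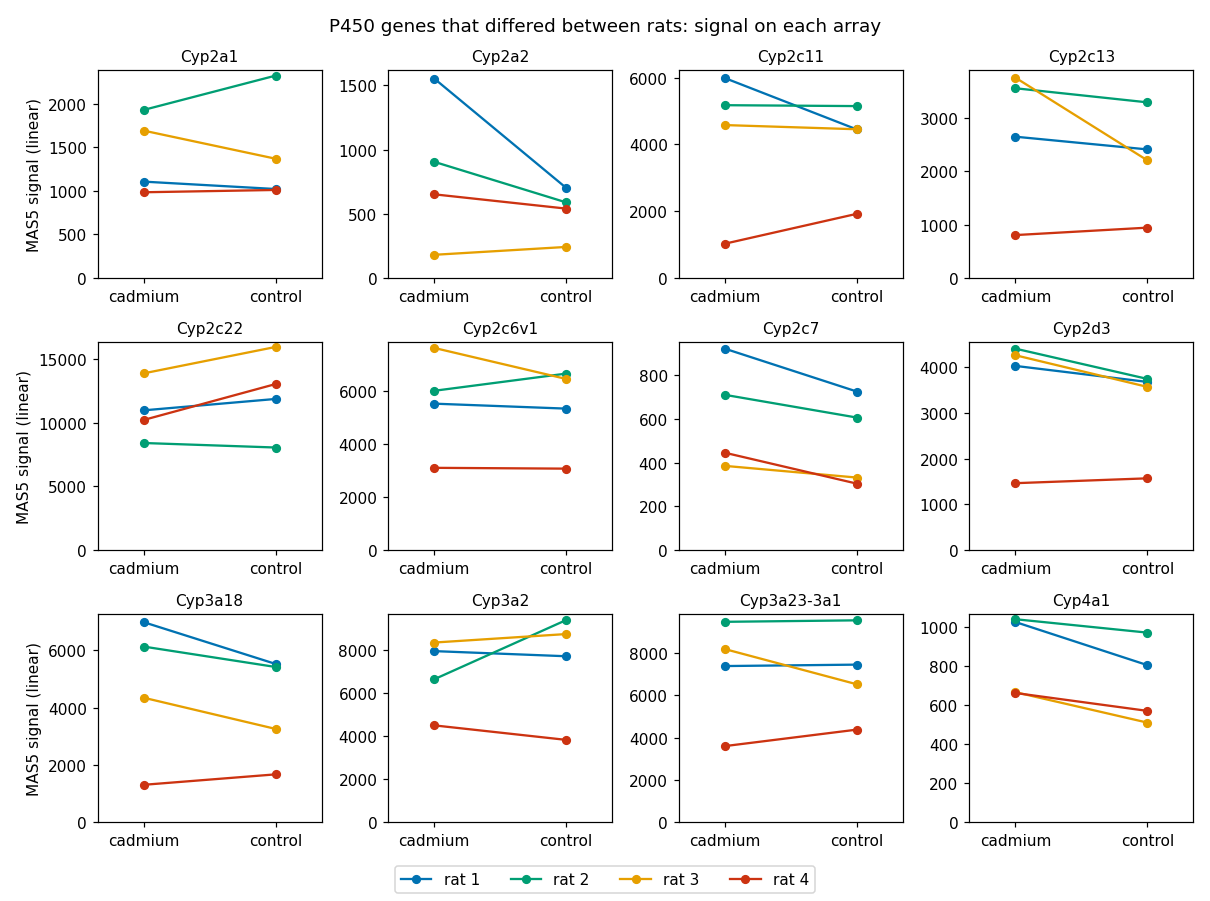
MAS5 signal on each array (vertical axis, linear, from zero) of the 12 P450 genes that differed between rats, with the cadmium array on the left and the control array on the right of each panel and a line joining the 2 arrays of a rat. The lines of rat 4 lie at the bottom of 8 panels, and that of rat 3 at the bottom for Cyp2a2.

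A further 4 genes of the 12 had their lowest level in rat 4. Cyp2c6v1, a constitutive drug hydroxylase of rat liver, gave 5539.7, 6026.5, 7646 and 3113 in cadmium cultures and 5352, 6676, 6473 and 3083 in controls (SD between rats 0.53, adjusted p = 0.00406; log2 change 0.04 ± 0.08, limma adjusted p = 0.83). Cyp3a23-3a1, the rat gene induced through the pregnane X receptor, gave 7376.5, 9465, 8178 and 3598 after cadmium and 7444, 9535, 6517 and 4375 in controls. Rats 1 and 2 were nearly level between treatments, rat 3 was higher and rat 4 lower after cadmium, and the cadmium change was 0.0054 ± 0.10 (adjusted p = 0.983; rats, adjusted p = 0.0104). Cyp3a2, a male-predominant steroid hydroxylase, had 7939, 6634, 8336 and 4495 with cadmium and 7701, 9379.5, 8729.6 and 3822.5 without, where rat 2 was lower and rat 4 higher after cadmium (change -0.07 ± 0.11, adjusted p = 0.766; rats, adjusted p = 0.0316). Cyp2a1, a testosterone hydroxylase that is higher in female rats, had 1105, 1927, 1689.5 and 983 with cadmium and 1020.3, 2320.1, 1367 and 1009.5 without. Rat 2 was high in both groups and rats 1 and 4 were low and close to each other (change 0.03 ± 0.11, adjusted p = 0.913; rats, adjusted p = 0.0234).

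The 3 other genes that differed between rats had other orders. Cyp2c7, a retinoid and steroid hydroxylase, gave 922, 711, 386 and 446 in cadmium cultures and 726, 607, 332 and 305 in controls. It was higher after cadmium in 4 of 4 rats, yet the spread between rats 1 and 3 was wider than the change and the groups overlapped (log2 change 0.33 ± 0.11, limma adjusted p = 0.131; rats, adjusted p = 0.011). Cyp2c22, known in the rat to oxidize retinoic acid, had 10961.5, 8402, 13862 and 10208 with cadmium and 11854, 8048, 15932 and 13023.5 without, highest in rat 3 and lowest in rat 2 (log2 change -0.15 ± 0.08, limma adjusted p = 0.33; rats, adjusted p = 0.0281). Cyp4a1 is a fatty acid omega-hydroxylase and a classical target of the receptor PPAR-alpha. Its signals were 1026, 1040, 666 and 662 after cadmium and 805, 971, 511 and 571 in controls. Rats 1 and 2 were above rats 3 and 4 in each group, and the cadmium culture was the higher in 4 of 4 rats (log2 change 0.26 ± 0.10, limma adjusted p = 0.186; rats, adjusted p = 0.045). This split of the rats, also seen for Cyp2c7 and Cyp3a18, is that of the chip lots, so rat and lot cannot be told apart in it.

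Family 2 had 23 members, of which 17 were tested, 9 with a higher and 8 with a lower mean after cadmium and a median log2 change of 0.001. Cyp2e1, which oxidizes ethanol and paracetamol, gave 7403, 6191, 8619 and 4216 in cadmium cultures, against 5724, 4311, 6613 and 5164 in controls. Rats 1 to 3 were higher and rat 4 lower after cadmium, and the change over all rats did not pass (log2 change 0.25 ± 0.13, limma adjusted p = 0.317). In the 2 rats on lot 2 the change was 0.45 and passed (limma adjusted p = 0.0323), where 1.93% of all tested probe sets were called higher. In the 2 rats on lot 1 it was 0.04 (adjusted p = 0.942). Cyp2d4, a member of the Cyp2d subfamily also known from brain, had the lowest change of the 31, with 439.7, 403, 610.2 and 387 after cadmium and 511, 482, 685 and 493 in controls. It was lower in 4 of 4 rats, with log2 differences of -0.35 to -0.17, and the groups overlapped (log2 change -0.25 ± 0.10, limma adjusted p = 0.227). Cyp2d2, the rat debrisoquine hydroxylase, had 7973, 9237, 8852.5 and 5596 with cadmium and 8030, 7986, 7247 and 7838 without, and rat 4 alone was clearly lower after cadmium (mean change 0.0006 ± 0.12).

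Cyp2f4, known for oxidizing naphthalene in rodent lung, gave 295, 393, 408 and 285 in cadmium and 359.7, 357, 418 and 433 in control cultures, with rats 1 and 4 clearly lower (log2 change -0.20 ± 0.15, limma adjusted p = 0.501). Cyp2t1 had 290.2, 305, 389 and 276 with cadmium and 309.8, 408, 333 and 327 without, and 3 of 4 rats were lower (log2 change -0.13 ± 0.14, limma adjusted p = 0.647). Cyp2b3, a constitutive member of the Cyp2b subfamily, had 2060.5, 1702, 1856 and 678 after cadmium and 1727, 1498, 1635 and 1125 in controls. Rats 1 to 3 were slightly higher and rat 4 lower, which gave a mean change of -0.03 ± 0.16 (adjusted p = 0.945). The arachidonic acid epoxygenase Cyp2c23 and the related Cyp2j4 were at 5421 ± 1451 in cadmium cultures and 5528 ± 937 in controls and at 845 ± 190.2 in cadmium cultures and 857 ± 71 in controls (SD, n = 4 each). Cyp2j3, another epoxygenase, was the member with the least spread, at 365, 362, 358 and 348 in cadmium cultures and 353, 319.9, 331 and 333 in controls. It was higher in 4 of 4 rats, with log2 differences of 0.04 to 0.18, and the change did not pass (log2 change 0.10 ± 0.12, limma adjusted p = 0.679).

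In family 3 all 4 members were tested, with a median log2 change of 0.08 and 3 of 4 means higher after cadmium. Beside the 3 described above, Cyp3a9, which is higher in female rats and also found in brain, gave 1177, 1165, 846 and 619.7 in cadmium and 911, 1145, 614 and 646 in control cultures. Rats 1 and 3 were higher after cadmium and rats 2 and 4 nearly level (log2 change 0.20 ± 0.12, limma adjusted p = 0.384). Rats 1 and 2 lay above rats 3 and 4 in each treatment, but the difference between rats did not pass (adjusted p = 0.0712).

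Family 4 had 10 members, of which 7 were tested, 2 with a higher and 5 with a lower mean, and a median of -0.07. Cyp4a3, which like Cyp4a1 hydroxylates fatty acids and responds to PPAR-alpha, gave 958, 658, 590.3 and 662 after cadmium and 1032, 738, 627 and 719.5 in controls. It was lower in 4 of 4 rats, with log2 differences of -0.17 to -0.09, where Cyp4a1 was higher in 4 of 4, and neither passed (log2 change -0.12 ± 0.09, limma adjusted p = 0.518). Cyp4f1, a leukotriene hydroxylase, had 3393.5, 3314, 3445 and 2076 with cadmium and 3116, 3073, 3589 and 3449 without. The cadmium culture of rat 4 was the one low value among the 8 (log2 change -0.14 ± 0.14, limma adjusted p = 0.624). Cyp4f4, Cyp4f6, Cyp4v3 and Cyp4b1, further fatty acid and eicosanoid hydroxylases, had changes of 0.04, -0.07, -0.07 and -0.0087, with adjusted p between 0.761 and 0.989.

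Of 4 genes of bile acid synthesis, 2 were tested. Cyp27a1, the mitochondrial sterol hydroxylase that opens the acidic pathway, gave 3377, 3375, 3080 and 2910.1 in cadmium and 3202, 2809, 2933 and 4072 in control cultures. It had the second smallest spread between rats of the 31, 0.09, and 3 of 4 rats were higher and rat 4 lower (log2 change -0.02 ± 0.12, limma adjusted p = 0.951). Cyp8b1, which makes the precursor of cholic acid, had 375, 495, 281 and 244 with cadmium and 335, 411, 239 and 366 without, again with rat 4 alone lower (log2 change 0.02 ± 0.17, limma adjusted p = 0.962). Cyp7a1, the rate-limiting enzyme of the classical pathway, was below the filter by its mean over all arrays, at 127, 163, 143 and 92.9 after cadmium and 151, 100.4, 80.8 and 108 in controls. Cyp7b1, the oxysterol hydroxylase, was dimmer still, at 51 ± 29.1 in cadmium cultures and 48.9 ± 13.8 in controls (SD, n = 4 each).

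Most enzymes of hormone and vitamin metabolism were dim. Of 8 such genes only Cyp27b1, the vitamin D activating enzyme of the kidney, was tested, and its signals of 151 ± 24.4 in cadmium cultures and 159.6 ± 34.7 in controls were near the filter (log2 change -0.07 ± 0.19, limma adjusted p = 0.879). The retinoic acid hydroxylases Cyp26a1 and Cyp26b1 and the steroid enzymes Cyp11a1, Cyp11b1, Cyp17a1, Cyp19a1 and Cyp21a1 were below the filter. Cyp26b1 was at 53.2, 26.6, 13.9 and 98 in cadmium cultures, against 14.6, 21.9, 22.4 and 19.5 in controls, and Cyp17a1 at 6, 13, 14.1 and 5.4 with cadmium and 17, 5.4, 16.7 and 28.8 without. Cyp21a1, a steroid hydroxylase of the adrenal, was the one member of the 49 whose groups did not overlap, at 18.4, 20.2, 14.8 and 21.1 after cadmium and 37.3, 56.5, 65.8 and 66.8 in controls. Among all tested probe sets 11.5% had groups that did not overlap, so 1 case in 49 does not stand out. The log2 change of Cyp21a1 was -1.53 and it was lower in 4 of 4 rats, but with all probe sets in the limma fit it did not pass (adjusted p = 0.119). The 18 members below the filter, which also hold Cyp2a3, Cyp2b12, Cyp2b21, Cyp2c12, Cyp2g1, Cyp2s1, Cyp4a8, Cyp4f5 and Cyp4f17, had signals of 5.4 to 163.2 in cadmium cultures and 5.4 to 158.4 in controls. Cyp2c12, the female-specific counterpart of Cyp2c11 in the rat, was at 58.8, 9.4, 69.8 and 66.1 with cadmium and 118, 24.3, 80.1 and 104 without.

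Related P450 genes are alike in sequence, and a probe set may pick up more than the gene it is named for. The annotation gives 6 further probe sets to several P450 genes at once, 3 of family 2 and 3 of family 11, which were left unnamed. Of the 6, 3 were tested, all of family 2, and none passed, with log2 changes of 0.09, -0.0013 and 0.33 (limma adjusted p of 0.751, 0.995 and 0.271). In all, 3 members had a second, dimmer probe set, all below the filter. Changes were -0.07 on the second probe set of Cyp2d4, against -0.25 on the first, -0.84 against -0.39 for Cyp4a8, where both were dim, and -0.10 against -0.07 for Cyp4v3.

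The proteins that P450 enzymes need were followed by lists of genes. Over all tested probe sets 2.86% were called higher and 2.29% lower, so in lists this short a count of 0 is near those shares. Of 9 measured electron donors and haem-binding partners, all tested, 0 passed in either direction, with a median log2 change of -0.09. Por, the NADPH reductase that feeds the microsomal P450 enzymes, was at 774 ± 18.2 in cadmium cultures and 730 ± 74.4 in controls (log2 change 0.09 ± 0.10, limma adjusted p = 0.681), and Cyb5a, cytochrome b5, at 5531 ± 484 in cadmium cultures and 5717 ± 542 in controls (log2 change -0.05 ± 0.10, limma adjusted p = 0.826). Among 11 tested genes of haem synthesis and breakdown, 2 were higher and none lower, with a median of -0.01. Alas1, the rate-limiting enzyme of haem synthesis in the liver, rose to 2705, 1731, 1480.4 and 1630.5 in cadmium cultures, against 1177, 957, 739.7 and 1081 in controls. The groups did not overlap and each rat was higher (log2 change 0.91 ± 0.11, limma adjusted p = 0.00236; 0.0324 without the rat block). Hmox1, haem oxygenase, which breaks haem down, also rose, to 18492, 19534, 19243 and 21613 after cadmium, against 663, 475, 930.4 and 586 in controls (log2 change 4.93 ± 0.15, limma adjusted p = 2.83e-07). The ferrochelatase Fech, which puts iron into haem, had a change of -0.14 ± 0.09 (adjusted p = 0.403).

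Of 22 tested nuclear receptors and liver factors that control P450 genes, 2 were lower and none higher, with a median log2 change of 0.07. Over all tested probe sets 2.29% were called lower and 2.86% higher, and the list was chosen with earlier results of these data known. After quantile normalization or median centring, 1 was lower and 1 higher, Cebpb, and without rat 1 also 1 and 1, the higher one being Rara. Cebpb, a C/EBP factor known from the acute phase response, was at 317, 287, 273 and 577 in cadmium cultures, against 201, 161, 204 and 136 in controls. The groups did not overlap and 4 of 4 rats were higher, most of all rat 4, but it did not pass (log2 change 0.99 ± 0.26, limma adjusted p = 0.0637; 0.0461 after quantile normalization and 0.0444 after centring). Rara, a retinoic acid receptor, passed without rat 1 (log2 change 2.17, adjusted p = 0.00949) but not over all rats (log2 change 1.20 ± 0.62, limma adjusted p = 0.32). Foxa2, a pioneer factor of liver genes, fell to 408, 449, 535 and 351 in cadmium cultures, against 586, 782, 935 and 758 in controls, with no overlap (log2 change -0.81 ± 0.12, limma adjusted p = 0.00694), and without rat 2 the change was the same size, -0.81, with an adjusted p of 0.0522. Fgfr4, the FGF receptor that restrains bile acid synthesis, fell to 109, 186, 189.8 and 131 after cadmium, against 182, 277, 298 and 219.6 in controls (log2 change -0.67 ± 0.16, limma adjusted p = 0.0432). Its call was lost without the rat block (adjusted p = 0.168) and without any 1 rat (adjusted p = 0.0637 to 0.16), and the groups overlapped. The receptors best known for P450 genes were not called. Nr1i2, the pregnane X receptor, was at 720.5 ± 60.1 in cadmium cultures and 704 ± 93.8 in controls (log2 change 0.04 ± 0.12, limma adjusted p = 0.885), Nr1i3, the constitutive androstane receptor, at 205 ± 54.4 in cadmium cultures and 209 ± 48 in controls (adjusted p = 0.924) and Nr1h4, the bile acid receptor, at 287 ± 85 in cadmium cultures and 268 ± 54.9 in controls (adjusted p = 0.851). Ppara and Nr0b2 were below the filter, at 19.1 ± 7.8 in cadmium cultures and 17.3 ± 7.4 in controls, and at 74.5 ± 25.9 in cadmium cultures and 38.7 ± 26.9 in controls (SD, n = 4 each). Of 12 other adult hepatocyte genes, such as Alb and Apoa1, 0 passed, with a median of 0.03. Without rat 4, 2 of them passed as higher, Tat (log2 change 0.71, adjusted p = 0.0157) and Fgb (0.32, adjusted p = 0.0248), and within chip lot 2 Tat passed (0.84, adjusted p = 0.0199), in the same settings in which 2 P450 members passed. Tat, tyrosine aminotransferase, and Fgb, a fibrinogen chain, are named after their values were seen.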

How the data were processed

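RNA of 8 rat hepatocyte cultures was read on 1 array each, with labelled cRNA made from 8 µg of total RNA. Per the submitters' processing notes, the authors used MAS5, and the deposited values are linear signal intensity per probe set. The sources used here do not give its version or scaling target, but the trimmed mean signal was 497.0 to 497.6 on every array.

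Of 15923 probe sets, 57 controls were left out, and of the other 15866 the platform annotation gave 1 gene symbol to 12783, several to 312 and none to 2771. Log2(signal + 1) values were fitted with limma 3.58.1 in R 4.3.3 (lmFit and eBayes with a variance trend), with cadmium and rat as terms, after the 40% dimmest probe sets by mean over all arrays had been left out. P-values were adjusted by Benjamini-Hochberg over all 9519 tested probe sets, with a threshold of 0.05, and differences between rats used the moderated F test of the rat terms. Changes are cadmium minus control on the log2(signal + 1) scale and understate changes of dim genes.

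The labels tie a number to a rat, and deviations of same-numbered arrays correlated at 0.350, 0.251, 0.475 and 0.196, against at most -0.008 between rats. The deviations were taken from the mean of each treatment. Positive values within a rat then pull those between rats below zero on average, so the contrast is partly built in. In the paired fit, the cadmium p-values rest on how the cadmium-minus-control difference varied between these 4 rats, and not on the spread of their levels. The F test between rats uses that same remainder, since each rat gave 1 culture per treatment. Both use variances moderated over all tested probe sets. All members were named. Values of all 8 arrays were given for the 5 largest changes in each direction, the 5 largest SDs between rats and a set of liver P450 genes, and others were added after their values were seen. The members and gene lists were chosen with earlier results of these data known, and the promoter motifs with the sequences seen. Promoter sequences come from RefSeq (GRCr8). Alternatives changed the pseudocount, filter, normalization, variance trend, rat block, chip lot and the rats included. Simulated arrays with known changes were used to test the fit, and the rat term recovered 84% of 100 probe sets shifted by 1.5 (log2) in 1 rat.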

Additional observations from a re-analysis of the deposited data

Results flagged for a closer look

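Each of the 62 sets of 4 arrays (31 tested members in each treatment) was searched for 1 array far from the other 3. Such an array was found in 7 sets. In independent sets chance would give about 1 in 20. These sets share their 4 rats, and Cyp2c11 and Cyp2d3 each count in both treatments. The count of 7 therefore cannot be set against that rate. In 5 of the 7 the array was of rat 4. For Cyp2c11 the signal of rat 4 was 1027.4 after cadmium, where the other rats lay between 4579.4 and 5986.9, and 1922.4 in the control, where they lay between 4449.4 and 5147.5. For Cyp2d3 it was 1464.1 after cadmium, against 4027 to 4404.4 in the other rats, and 1570.1 in the control, against 3569 to 3742.9. The cadmium array of rat 4 also stood apart for Cyp4f1, at 2076.1 against 3313.6 to 3445.3. The remaining cases were the control of rat 3 for Cyp2d4, at 685 against 482 to 510.7, and the control of rat 2 for Cyp4b1, at 152.3 against 138.6 to 139.3.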

How the results depend on the processing

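The count of P450 members called for cadmium was 0 in both directions under each other pseudocount, filter, normalization and variance setting and without the replicate block. Over these settings 308 member values held 0 calls and 13 changes of sign, with a lowest adjusted p of 0.0535. Leaving out 1 rat gave 0 to 2 members higher, the 2 being Cyp2e1 and Cyp3a18 without rat 4, and chip lot 2 alone gave 2, Cyp2a2 and Cyp2e1. Over all probe sets 3.25% were called higher without rat 4 and 1.93% within lot 2, and of 12 other hepatocyte genes 2 and 1 were. The median change over the members ran from -0.08 to 0.11, against an SD of 0.18 between the medians of the rats. The 12 members that differed between rats became 6 with no filter, 2 without the variance trend, 13 with the lowest 60% left out and 7 to 11 without 1 rat; the cause was not tested. Over all probe sets the count called for cadmium was 490, against 336 without the replicate block, 313 with no filter, 261 without the variance trend, 165 to 599 without 1 rat, 87 within chip lot 1, 296 within lot 2 and 845 at an adjusted p under 0.1.

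Median centring moved the median change of all probe sets to 0.018, against -0.061 before it, and turned the sign of Cyp2b3 (0.051), Cyp2c23 (0.026), Cyp2j4 (0.034), Cyp3a2 (0.0064), Cyp4b1 (0.070), Cyp4f6 (0.0082), Cyp4v3 (0.0092), Cyp27a1 (0.060) and Cyp27b1 (0.011). Quantile normalization turned Cyp2c6v1 (-0.082), Cyp2d2 (-0.11), Cyp3a23-3a1 (-0.13) and Cyp4b1 (0.051). Within chip lot 1 the sign turned for Cyp2a2 (-0.075), Cyp2d2 (-0.099), Cyp3a2 (0.084), Cyp4b1 (0.30), Cyp4f4 (-0.14), Cyp8b1 (-0.17) and Cyp27b1 (0.11). Within lot 2 it turned for Cyp2a1 (-0.076), Cyp2b3 (0.22), Cyp2c11 (0.22), Cyp2c23 (0.092), Cyp2c6v1 (-0.049), Cyp2j4 (0.14), Cyp3a23-3a1 (-0.012), Cyp4f1 (0.12), Cyp4f6 (0.075), Cyp4v3 (0.040) and Cyp27a1 (0.17). Leaving out 1 rat gave ranges across zero for Cyp2a1 (-0.064 to 0.13), Cyp4b1 (-0.19 to 0.18), Cyp8b1 (-0.061 to 0.22), Cyp27b1 (-0.14 to 0.030), Cyp2d2 (-0.096 to 0.16), Cyp3a2 (-0.17 to 0.070), Cyp4f4 (-0.052 to 0.14), Cyp2c6v1 (-0.028 to 0.10), Cyp3a23-3a1 (-0.10 to 0.10), Cyp4v3 (-0.15 to 0.088), Cyp2b3 (-0.12 to 0.21), Cyp2c11 (-0.29 to 0.16), Cyp2c23 (-0.13 to 0.088), Cyp2j4 (-0.13 to 0.089), Cyp4f1 (-0.23 to 0.058), Cyp4f6 (-0.16 to 0.0081) and Cyp27a1 (-0.11 to 0.14). None of these changes of sign was of a called value.

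Without the replicate block the call of Fgfr4 was lost (adjusted p = 0.168), as with no filter (0.107), quantile normalization (0.066) and centring (0.0675), while no P450 call changed. Within chip lot 1 Alas1 (0.80, adjusted p = 0.16) and within either lot Foxa2 (adjusted p = 0.107 and 0.059) did not pass with 2 rats. Cyp4b1 and Cyp27b1 could not be tested with the lowest 60% left out. Signals near or below the filter limit what can be said of 18 of the 49 members.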
